A study of Mus musculus with 18 samples.

Results

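The genes described here are 36 genes that encode the enzymes and carriers of glycolysis, of pyruvate entry into the mitochondrion and of the pentose phosphate pathway, together with Hif1a and its target Bnip3. They were taken by symbol from a list of pathway genes. All 36 were found among the 35275 gene identifiers of the table, and all 36 were among the 12223 genes tested. They comprise 4 plasma membrane transporters, 9 genes of upper glycolysis, 7 of lower glycolysis (from Gapdh to the lactate dehydrogenases), 2 enzymes that set fructose 2,6-bisphosphate, 8 genes of pyruvate entry, 4 of the pentose phosphate pathway, and the pair Hif1a and Bnip3.

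Glycolysis splits glucose into pyruvate, which is either reduced to lactate in the cytosol or carried into mitochondria and oxidised by the pyruvate dehydrogenase complex. The pentose phosphate pathway branches off glucose 6-phosphate and makes NADPH and ribose 5-phosphate. Conventional T cells raise glycolysis when activated, driven by mTORC1, Myc and the hypoxia factor HIF-1, whereas regulatory T cells (Treg) are known to rely more on mitochondrial oxidation, with high glycolysis loosening their suppressive function.

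RNA was sequenced from Treg of male mice, 6 to 8 weeks of age, taken on a CD4 column and then sorted on the YFP made from the Foxp3-YFP-cre allele. That allele was present in every mouse. Controls, labelled wild type, carried it alone, and the other 5 groups also carried floxed alleles of Mef2d, Mef2c, HDAC1, HDAC2 or Dyrk1, which the cre cuts in cells that express Foxp3. Each of the 6 groups had 3 libraries, described in the series text as independent biological replicates. The label Dyrk1 does not say whether Dyrk1a or Dyrk1b was floxed, and the growth protocol names a Rcor1 knockout that no sample label carries. Levels are in FPKM, which are scaled to gene length and to library depth, so levels of different genes are compared per length.

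Depth, estimated from the step that 1 read makes in genes of few reads, was 15.92 to 24.09 M reads per library, an approximate figure since 52.5 to 55.6% of such values came out whole within 0.03 of a read. Foxp3, which defines Treg, was at 82.5 to 117.7 FPKM and Cd4 at 185.8 to 280.4 FPKM in the 18 libraries. Of the floxed genes, Hdac1 averaged 32.0 FPKM in the HDAC1-labelled libraries and 119 in wild type, and the others were not lower than in wild type by more than the spread of their libraries. Hdac2 averaged 27.9 FPKM in the HDAC2-labelled libraries against 28.3 in wild type, Mef2d 53.4 against 41.7, Mef2c 1.27 against 0.476, Dyrk1a 33.1 against 27.7 and Dyrk1b 11.8 against 7.001. A whole-gene value does not check the loss of an exon, so every group but HDAC1 is known by its label only. In wild type replicate 3, 24 of the 36 genes had the highest value of the 3 wild-type libraries, and 17 had the highest value of all 18. Wild type replicate 2 was the lowest of its group for 25. The summed level of 10 B cell markers was 400.1 FPKM in Dyrk1 replicate 1, 134.3 in Mef2c replicate 1 and 183.4 in Mef2d replicate 1, against 29.94 to 92.49 in the other 15 libraries.

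The promoters of 3 of these genes are shown because they differ in the number or the form of the core of the hypoxia response element: Ldha (lactate dehydrogenase A), Pgk1 (phosphoglycerate kinase) and Pdk1 (pyruvate dehydrogenase kinase). Each runs from 250 bases before to 50 after the start of transcription on the plus strand, from RefSeq on GRCm38.p6. Capitals mark ACGTG and GCGTG, the 2 forms of the core, read on either strand, and CACGTG, the E-box, which holds ACGTG on both strands. Each CACGTG is therefore also counted as 2 ACGTG. Ldha and Pdk1 have 2 promoters each in the table, and the one with more matches is shown. The Ldha window, at chr7:46845554-46845853, held 5 ACGTG, 2 GCGTG and 2 CACGTG. The Pgk1 window, at chrX:106186850-106187149, held 2 ACGTG. The Pdk1 window, at chr2:71872974-71873273, held 2 GCGTG. The other Ldha promoter, at chr7:46846832-46847131, held 0 ACGTG, 2 GCGTG and 0 CACGTG, and the other Pdk1 promoter, at chr2:71874654-71874953, held none of the 3.
Ldha: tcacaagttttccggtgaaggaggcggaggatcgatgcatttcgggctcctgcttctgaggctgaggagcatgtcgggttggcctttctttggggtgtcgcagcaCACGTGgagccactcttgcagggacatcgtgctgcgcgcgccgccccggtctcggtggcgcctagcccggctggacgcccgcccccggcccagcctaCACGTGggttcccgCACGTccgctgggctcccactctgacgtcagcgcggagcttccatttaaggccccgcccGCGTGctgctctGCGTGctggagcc
Pgk1: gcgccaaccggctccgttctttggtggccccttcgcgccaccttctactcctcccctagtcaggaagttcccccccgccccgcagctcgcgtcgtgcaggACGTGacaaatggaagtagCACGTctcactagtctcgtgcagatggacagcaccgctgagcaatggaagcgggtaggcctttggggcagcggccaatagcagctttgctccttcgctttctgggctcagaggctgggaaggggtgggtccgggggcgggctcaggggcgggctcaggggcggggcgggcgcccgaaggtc
Pdk1: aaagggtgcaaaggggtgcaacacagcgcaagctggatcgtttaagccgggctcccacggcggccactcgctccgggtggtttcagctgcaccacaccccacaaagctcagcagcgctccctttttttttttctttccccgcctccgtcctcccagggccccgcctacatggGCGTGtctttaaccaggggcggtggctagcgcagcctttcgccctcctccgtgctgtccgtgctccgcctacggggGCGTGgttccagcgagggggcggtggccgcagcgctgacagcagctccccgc
Across the 36 genes, 35 had at least 1 promoter in the table, 51 promoters in all, and Slc2a3 had no entry. ACGTG or GCGTG was present in 40 of the 51 (78.4%), in 43.8% of all 32851 promoters of the same length and in 62.1% of the 11270 promoters of genes tested here. ACGTG alone was in 45.1% of the 51, against 19.6% of all promoters and 25.7% of those of genes tested. CACGTG was in 13.7%, against 7.15% and 10.1%. These are matches of letters and do not show that a factor is bound there.

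The 36 genes covered a wide range of levels. Averaged over the 18 libraries, Gapdh was the highest at 654.3 FPKM, followed by Pkm at 369.9, Ldha at 350.2, Eno1 at 305.6 and Aldoa at 247.0. Pfkfb4 at 2.182 FPKM and Aldoc at 1.219 were the lowest. In the paired enzyme families Treg expressed mostly 1 form: Hk1 made up 94.9 ± 1.14% (SD, n = 3) of the summed FPKM of Hk1 and Hk2 in wild type, and Ldha made up the rest beside 7.26 ± 0.987% Ldhb. The glucose carriers Slc2a1 and Slc2a3 were at nearly equal levels in wild type, with Slc2a3 at 45.8 ± 1.81% of their sum. The phosphofructokinases split between Pfkp at 47.3 ± 1.44%, Pfkl at 39.2 ± 2.96% and Pfkm at 13.4 ± 1.52%.

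Whether the deletions were accompanied by a change in these genes was asked by comparing each deletion group with wild type. More of the 36 fell than rose in the HDAC2-labelled and Mef2d-labelled libraries, among them 7 and 6 of the 7 enzymes of lower glycolysis, and Tpi1 fell most in both. Slc2a3 and Mpc1 rose in both. Against wild type, 16 of the 36 were lower and 3 higher in HDAC2-labelled libraries, where 9.41% of all genes tested were lower and 16.1% higher (25.6% either way). In Mef2d-labelled libraries 17 were lower and 4 higher, with 7.95% of all genes lower and 13.9% higher (21.9% either way). Dyrk1-labelled libraries had 8 lower and 0 higher in limma (1 higher at an unadjusted p under 0.05), beside 6.19% and 11.1% of all genes. Among Mef2c-labelled libraries the counts were 5 lower and 3 higher, beside 6.06% and 12.9%. HDAC1-labelled libraries had 1 lower and 2 higher, beside 2.32% and 10.2%. A call is a Benjamini-Hochberg adjusted p under 0.05 from limma over all genes tested, on log2(FPKM + 1).

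The median log2 difference from wild type over the 36 genes was -0.18 in HDAC2, -0.19 in Mef2d, -0.18 in Dyrk1, -0.11 in Mef2c and -0.08 in HDAC1, where the median of all genes tested was 0.02 to 0.05. These 5 comparisons share the same 3 wild-type libraries, so a high or low value there moves all 5 together. Without wild type replicate 3 the number lower was 8 in HDAC2, 8 in Mef2d, 4 in Dyrk1 and 1 in Mef2c. The number lower in Mef2d was 9 without Mef2d replicate 1, 10 without Mef2d replicate 2 and 11 without wild type replicate 1. In Mef2c it was 1 without Mef2c replicate 1, 3 on leaving out wild type replicate 1 and 10 on leaving out wild type replicate 2. In Dyrk1 it was 5 without Dyrk1 replicate 2 or 3, and in HDAC1 it was 8 without wild type replicate 2. The number higher was 1 in Mef2d without Mef2d replicate 1 or 2, 1 in Mef2c without Mef2c replicate 1 or wild type replicate 2, and 0 or 1 in HDAC1 without any 1 library. With libraries rescaled by median ratios (RLE) 7 were lower and 1 higher in HDAC1, and 10 lower and 2 higher in Mef2c. An F test over the 6 groups passed for 21 of the 36, where 38.6% of all genes tested passed. The map of log2 differences by gene and comparison shows these calls.

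**Figure D1:**
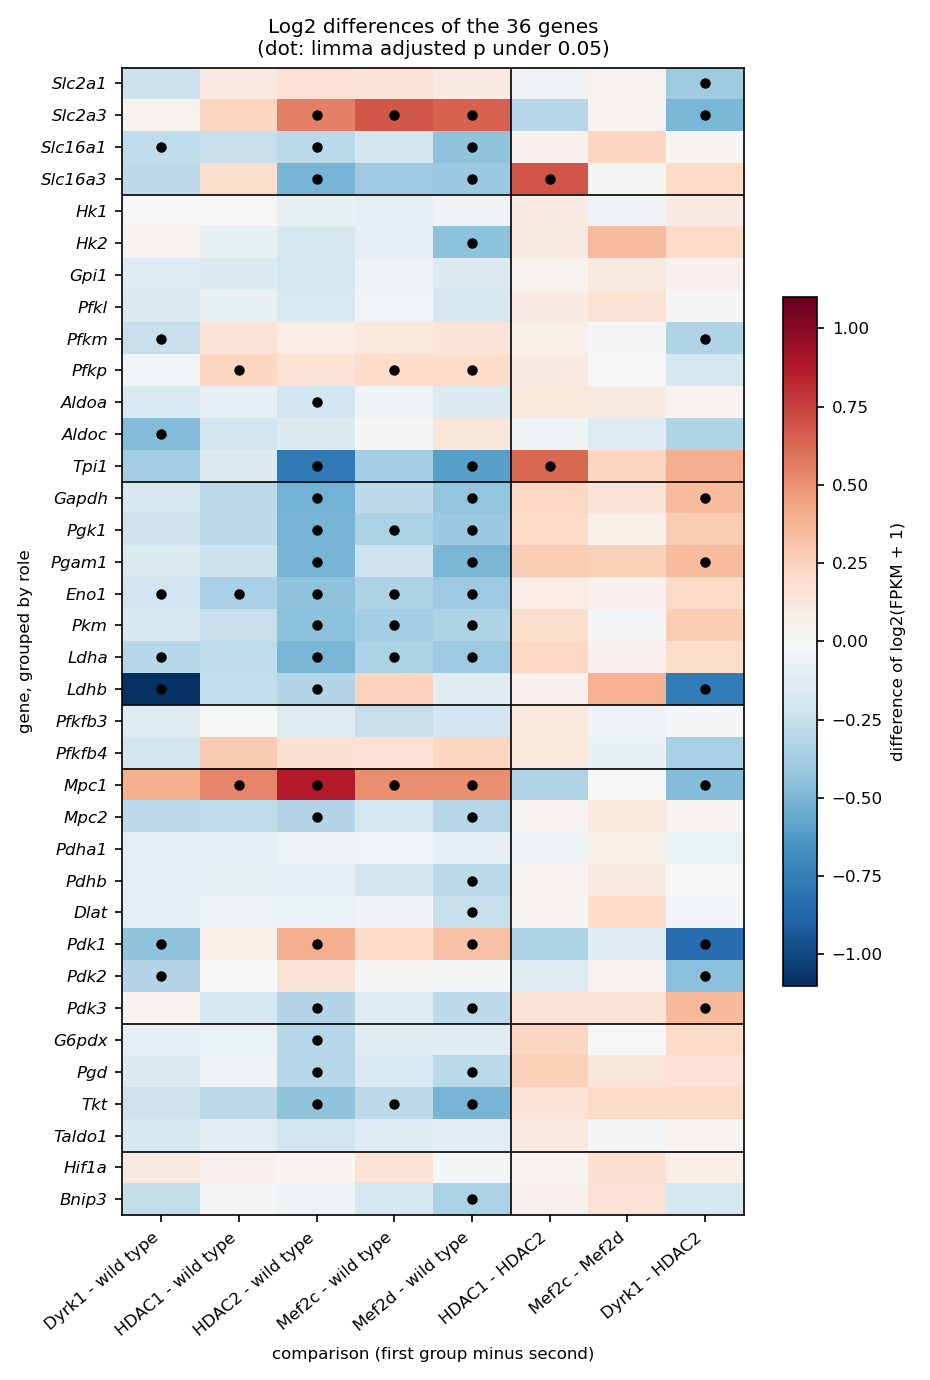
Log2 differences of log2(FPKM + 1) for the 36 genes (rows, grouped by role) in the 5 comparisons with wild type and the 3 between deletion groups (columns); dots mark an adjusted p under 0.05 from limma. The rows from Tpi1 to Ldha are blue in all 5 comparisons with wild type and dotted throughout in HDAC2 and Mef2d, whereas Slc2a3 is red and dotted in 3 of the 5 and Mpc1 in 4 of the 5.

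Lower glycolysis turns triose phosphate into pyruvate and lactate and makes the pathway's net ATP. All 7 of its genes fell in HDAC2-labelled libraries (median log2 difference -0.50), and 6 of 7, all but Ldhb, fell in Mef2d-labelled ones (median -0.40). In Mef2c 4 of 7 fell (Pgk1, Eno1, Pkm and Ldha), in Dyrk1 3 (Eno1, Ldha and Ldhb) and in HDAC1 1 (Eno1). In bulk RNA a smaller share of cells with high levels and less RNA in each cell cannot be told apart.

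Gapdh, glyceraldehyde 3-phosphate dehydrogenase (ENSMUSG00000057666, chr6:125161715-125166467, minus strand), was at 765, 705 and 917 FPKM in wild-type replicates 1 to 3. It was at 527, 556 and 565 in HDAC2-labelled and 578, 554 and 629 in Mef2d-labelled libraries. Every library of those groups was below every wild-type library. The log2 difference of Gapdh was -0.52, SE 0.10, adjusted p 0.00328 for HDAC2 and -0.43, SE 0.10, adjusted p 0.00806 for Mef2d, and both calls held with any 1 library left out. In the other 3 groups Gapdh did not pass, at 594, 633 and 716 FPKM in Mef2c, 667, 580.0 and 692 in HDAC1 and 734, 685 and 679.5 in Dyrk1 libraries. Of the 100-base stretches of its longest coding transcript, 78.0% also occur in other annotated genes, so its counts depend on how shared reads were assigned. The same holds for Pgk1 (67.0%), Eno1 (59.0%) and Pgam1 (39.7%), and much less for Pkm (9.8%) and Ldha (1.3%).

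Ldha, the lactate dehydrogenase subunit that favours lactate formation (ENSMUSG00000063229, chr7:46841475-46855627, plus strand), has little such shared sequence. It was at 428, 375 and 496 FPKM in wild type and 292, 311 and 308 in HDAC2-labelled libraries, with no overlap. Mef2d-labelled libraries held 326, 317 and 331, Mef2c-labelled 309, 358 and 346 and Dyrk1-labelled 361, 326 and 354. All 3 groups were below every wild-type library. For Ldha the log2 difference was -0.50, SE 0.09, adjusted p 0.00289 in HDAC2 and -0.40, SE 0.09, adjusted p 0.00704 in Mef2d, and both calls held with any 1 library left out. In Mef2c it was -0.35, SE 0.09, adjusted p 0.015, a call lost without wild type replicate 3 or Mef2c replicate 1 (log2 difference -0.29 to -0.25, adjusted p 0.078 to 0.0818). In Dyrk1 it was -0.31, SE 0.09, adjusted p 0.03, a call lost without wild type replicate 1 or 3 or Dyrk1 replicate 2 or 3 (log2 difference -0.32 to -0.21, adjusted p 0.0575 to 0.132). The HDAC1 libraries, at 357, 328 and 381, overlapped wild type and did not pass. Ldha lies 18.7 Mb from Dyrk1b on chromosome 7, and the label does not say whether Dyrk1b was floxed.

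Pkm, pyruvate kinase, makes pyruvate and the last ATP of the pathway. Its levels were 439.5, 386 and 508 FPKM in wild type, 301, 348 and 324 in HDAC2, 338, 348 and 357 in Mef2d and 329, 362 and 337 in Mef2c libraries. None of these 3 deletion groups overlapped wild type. The log2 difference of Pkm was -0.45, SE 0.09, adjusted p 0.0046 in HDAC2, and it held with any 1 library left out. In Mef2d it was -0.34, SE 0.09, adjusted p 0.0171, a call lost without wild type replicate 3 or Mef2d replicate 1 (log2 difference -0.32 to -0.24, adjusted p 0.0632 to 0.0977). In Mef2c it was -0.37, SE 0.09, adjusted p 0.0131, a call lost without wild type replicate 3 or Mef2c replicate 1 (log2 difference -0.34 to -0.27, adjusted p 0.0583 to 0.0735).

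Among the 36 genes only Eno1, enolase 1, fell in all 5 comparisons with wild type. It was at 374, 344 and 401 FPKM in wild type, 273, 271 and 280.1 in HDAC2 and 281, 279.6 and 287 in Mef2d libraries. Levels in the other groups were 269, 305 and 307 in Mef2c, 304, 274 and 294 in HDAC1 and 319, 294 and 345 in Dyrk1. Dyrk1 replicate 3 reached just above the lowest wild-type library, and the other 4 groups lay wholly below it. Eno1 lies 20.7 Mb from the targeted Hdac1 gene on chromosome 4. For Eno1 the log2 difference was -0.44 in HDAC2 (adjusted p 0.00251), -0.40 in Mef2d (adjusted p 0.00229), -0.34 in Mef2c (adjusted p 0.00487) and -0.36 in HDAC1 (adjusted p 0.00832), each with SE 0.07. These 4 calls held in all 13 alternatives tried for each. In Dyrk1 it was -0.22, SE 0.07, adjusted p 0.0455, a call lost without wild type replicate 1 or 3 or Dyrk1 replicate 1 or 2 (log2 difference -0.23 to -0.17, adjusted p 0.0695 to 0.177).

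Pgk1, which makes the first ATP of the payoff phase, was at 160.3, 128 and 174 FPKM in wild type and 103, 114 and 103 in HDAC2-labelled libraries. All HDAC2 libraries were lower than all wild-type libraries (log2 difference -0.51, SE 0.11, adjusted p 0.00458), which held with any 1 library left out. Mef2d libraries, at 112, 116 and 116, were also all lower (-0.41, SE 0.11, adjusted p 0.0146), a call lost without wild type replicate 1 or 3 or Mef2d replicate 1 (log2 difference -0.39 to -0.32, adjusted p 0.0509 to 0.0849). Mef2c libraries, at 109.9, 129 and 120.0, overlapped wild type (-0.35, SE 0.11, adjusted p 0.031), a call lost without wild type replicate 1 or 3 or Mef2c replicate 1 or 3 (log2 difference -0.35 to -0.26, adjusted p 0.0607 to 0.159).

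Pgam1, phosphoglycerate mutase 1, was at 34.6, 28.5 and 38.2 FPKM in wild type, 23.5, 23.5 and 22.7 in HDAC2 and 24.4, 22.2 and 23.8 in Mef2d libraries. Both deletion groups were narrow and lay wholly below wild type. The log2 difference of Pgam1 was -0.51, SE 0.09, adjusted p 0.00274 in HDAC2 and -0.50, SE 0.09, adjusted p 0.00179 in Mef2d, and both held with any 1 library left out. The Mef2c libraries, at 27.9, 28.2 and 29.1, overlapped the lowest wild-type library and did not pass.

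**Figure D2:**
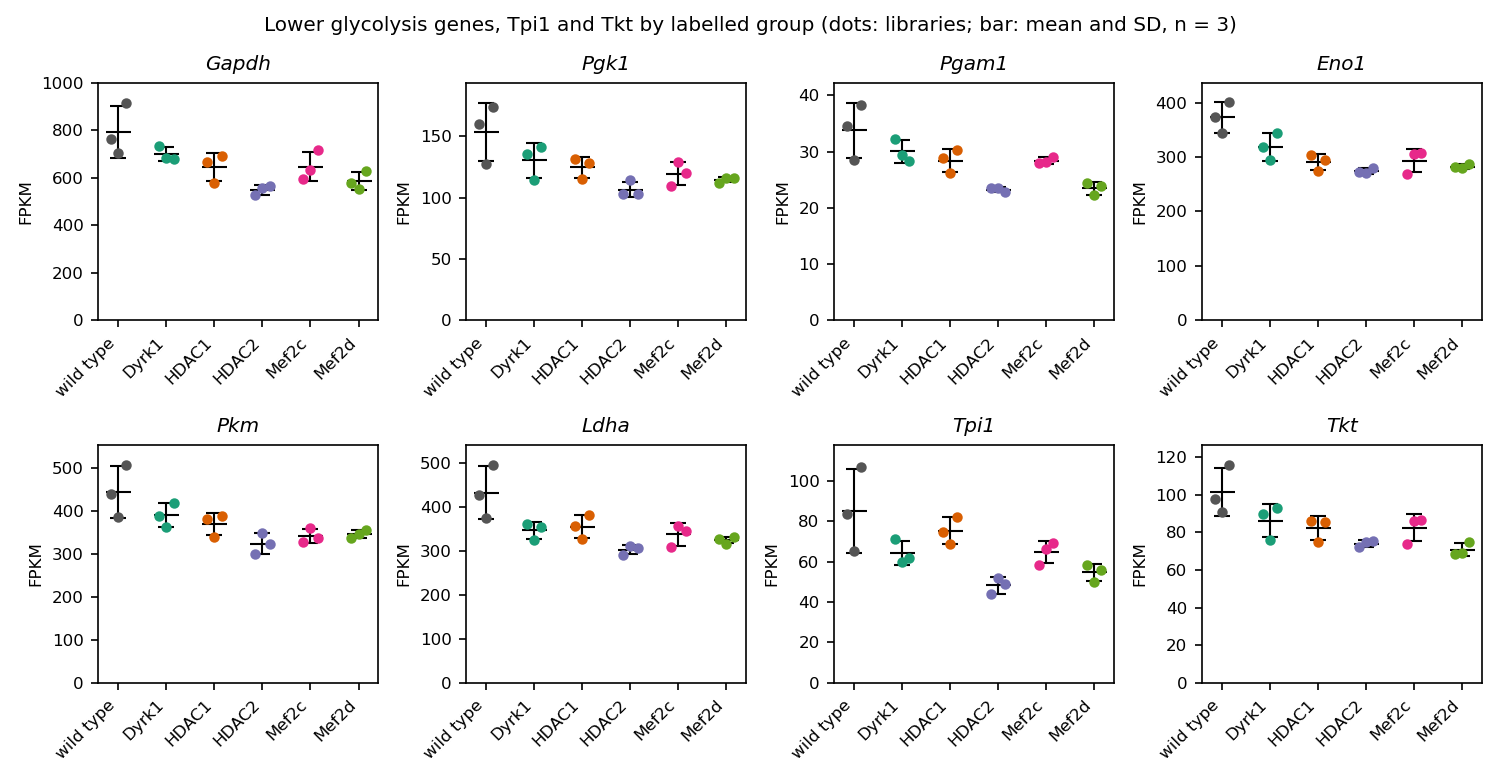
FPKM of Gapdh, Pgk1, Pgam1, Eno1, Pkm, Ldha, Tpi1 and Tkt in the 6 labelled groups; dots are libraries, bars the mean and SD (n = 3), and axes start at 0. HDAC2 and Mef2d libraries lie below wild type in all 8 panels, and wild type spreads from 705 to 917 FPKM for Gapdh.

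The summed level of the 7 lower glycolysis genes was 2233, 2000 and 2567 FPKM in wild-type replicates 1 to 3. It was 1546 to 1647 in HDAC2, 1669 to 1774 in Mef2d, 1678 to 1899 in Mef2c, 1692 to 1942 in HDAC1 and 1826 to 1989 in Dyrk1 libraries. The 15 libraries of the deletion groups were thus all below the lowest of wild type, in Dyrk1 narrowly (1989 against 2000). Gapdh, Pkm, Ldha and Eno1 weigh most in this sum, and all 5 groups are set against the same wild-type libraries.

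A list of 34 cell cycle genes was lower than wild type in HDAC2, Mef2d and Mef2c and higher in Dyrk1. Their summed FPKM was 1014, 735.5 and 1232 in wild-type replicates 1 to 3, in the same order as the lower glycolysis sum. It was 521.4 to 616.1 in HDAC2, 627.8 to 730.2 in Mef2d, 663.8 to 724.6 in Mef2c, 693.7 to 919.1 in HDAC1 and 1244 to 1344 in Dyrk1 libraries. No gene of the list was at 0 in all 3 libraries of a group. Against wild type 30 of the 34 were lower in HDAC2, 21 in Mef2d and 17 in Mef2c, and 9 were higher in Dyrk1. In HDAC1 0 were called by limma, with 5 lower at an unadjusted p under 0.05. The part of cell division in the levels of glycolysis genes was not tested.

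Markers of other cells also differed between the groups. Of 8 plasma cell markers 6 were higher in HDAC2 than in wild type, with a sum of 3471 to 10670 FPKM against 564.5 to 1661, most of it from Igha. In HDAC1 2 were higher in limma (6 at an unadjusted p under 0.05), with a sum of 2060 to 6150 FPKM. Dyrk1 had 1 higher and Mef2c 1 lower, with sums of 1127 to 1354 and 447.1 to 631.6. Of all genes tested 16.1% were higher in HDAC2, 10.2% in HDAC1 and 11.1% in Dyrk1, and 6.06% were lower in Mef2c. Of 13 CD8 T and NK cell markers 4 were higher in HDAC2, with a sum of 102.2 to 163.9 FPKM against 73.29 to 109.6. In Mef2d libraries the plasma cell sum was 287.9 to 668.4, with 0 of 8 called by limma (0 higher and 3 lower at an unadjusted p under 0.05), and 2 of the 13 CD8 T and NK cell markers were lower. Of 6 erythroid markers tested 1 was lower in each of Mef2d, Dyrk1 and Mef2c, and the median log2 difference was -1.90, -1.95 and -1.60. The summed FPKM of 7 erythroid markers was 25.9, 177.7 and 390.1 in wild-type replicates 1 to 3, 13.31 to 55.84 in Mef2d, 6.623 to 41.79 in Dyrk1, 15.26 to 52.64 in Mef2c, 92.1 to 264.2 in HDAC1 and 43.64 to 304.7 in HDAC2. No marker of these lists was at 0 in all 3 libraries of a group. The part of such cells in the levels was not tested. With the 3 B-cell-marker-rich libraries (replicate 1 of Dyrk1, Mef2c and Mef2d) left out, the number of the 36 genes called lower was 16 in HDAC2, 10 in Mef2d and 1 in Mef2c.

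Upper glycolysis, which spends ATP to make triose phosphates, had fewer calls. Of its 9 genes 2 fell in HDAC2 (Aldoa and Tpi1), 2 fell and 1 rose in Mef2d (Hk2 and Tpi1, and Pfkp), 2 fell in Dyrk1 (Pfkm and Aldoc), and Pfkp alone rose in Mef2c and in HDAC1. Hk1, the main hexokinase here, and Gpi1 and Pfkl passed in no comparison. Their adjusted p was 0.582 or more for Hk1, 0.0617 or more for Gpi1 and 0.272 or more for Pfkl.

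Tpi1, triose phosphate isomerase (ENSMUSG00000023456, chr6:124810586-124814296, minus strand), had the largest fall in HDAC2 of the 36 genes. It was at 83.4, 65.3 and 107 FPKM in wild type, 43.8, 51.9 and 49.1 in HDAC2 and 58.1, 50.04 and 55.9 in Mef2d libraries. Both deletion groups lay below wild type, whose own libraries differed by more than any other group's. For Tpi1 the log2 difference was -0.78, SE 0.14, adjusted p 0.00287 in HDAC2 and -0.60, SE 0.14, adjusted p 0.00806 in Mef2d, and both held with any 1 library left out. With the 2 groups alone the Tpi1 call in Mef2d was lost (adjusted p 0.0568). In Dyrk1, Mef2c and HDAC1 libraries Tpi1 averaged 64.2 ± 5.99, 64.6 ± 5.44 and 75.2 ± 6.67 FPKM (SD, n = 3), and it did not pass. Tpi1 overlaps Spsb2 on the opposite strand, and whether reads were counted by strand is not given in the sources used here.

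Hk2, the inducible hexokinase, was low throughout. It was at 3.25, 2.02 and 3.53 FPKM in wild type and 1.81, 1.68 and 2.01 in Mef2d libraries, which did not overlap. Its log2 difference there was -0.45, SE 0.15, adjusted p 0.043, a call lost without wild type replicate 1 or 3 or Mef2d replicate 1, 2 or 3 (log2 difference -0.50 to -0.34, adjusted p 0.0587 to 0.201). Aldoa, the main aldolase, was at 259.7, 245 and 297 FPKM in wild type and 224, 229.8 and 237 in HDAC2 libraries, without overlap. Its log2 difference was -0.21, SE 0.07, adjusted p 0.0468, a call lost without wild type replicate 1 or 3 or HDAC2 replicate 1, 2 or 3 (log2 difference -0.23 to -0.13, adjusted p 0.0675 to 0.232).

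Pfkp, the phosphofructokinase with the highest level, rose slightly in 3 groups. It was at 29.7, 27.3 and 31.5 FPKM in wild type, 35.2, 33.9 and 35.7 in HDAC1, 33.6, 35.8 and 32.9 in Mef2c and 33.8, 34.3 and 33.9 in Mef2d libraries. All libraries of the 3 groups were above all of wild type. The same held for 24.8% of all genes tested in HDAC1, 23.5% in Mef2c and 25.9% in Mef2d. HDAC2 libraries, at 32.7, 33.8 and 32.1, were also all above wild type without passing, as for 28.6% of all genes tested. The log2 difference of Pfkp was 0.24, SE 0.06, adjusted p 0.0237 in HDAC1, 0.20, SE 0.06, adjusted p 0.0351 in Mef2c and 0.20, SE 0.06, adjusted p 0.0332 in Mef2d. The call in HDAC1 was lost without wild type replicate 1 or 2 or HDAC1 replicate 1 or 3 (log2 difference 0.19 to 0.25, adjusted p 0.0555 to 0.0773), that in Mef2c without wild type replicate 1 or 2 or Mef2c replicate 1 or 2 (log2 difference 0.15 to 0.21, adjusted p 0.0729 to 0.123) and that in Mef2d without wild type replicate 1 or 2 or Mef2d replicate 1, 2 or 3 (log2 difference 0.15 to 0.21, adjusted p 0.0674 to 0.112). With trends of the difference on gene length and GC content removed it was -0.01 in Mef2d, and with RLE scaling none of the 3 calls held.

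In Dyrk1 libraries the minor isoforms Pfkm and Aldoc fell. Pfkm, the muscle form of phosphofructokinase, was at 8.12, 8.46 and 8.41 FPKM in wild type and 6.19, 7.62 and 6.87 in Dyrk1 libraries (-0.25, SE 0.07, adjusted p 0.0247), a call lost without wild type replicate 2 or 3 or Dyrk1 replicate 1 or 3 (log2 difference -0.24 to -0.18, adjusted p 0.0589 to 0.0732). Aldoc, aldolase C, was at 1.43, 1.101 and 1.65 and 0.848, 0.594 and 0.682 FPKM (-0.48, SE 0.11, adjusted p 0.0101), a call that held with any 1 library left out and was lost with the 2 groups alone (adjusted p 0.126). No Dyrk1 library of either gene reached the wild-type range. The bifunctional enzymes Pfkfb3 and Pfkfb4, which make and break the activator fructose 2,6-bisphosphate, passed in no comparison. Pfkfb3 ranged from 11.84 to 17.23 FPKM and Pfkfb4 from 1.186 to 2.731 over the 18 libraries.

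Among the transporters, Slc2a3 (the glucose carrier GLUT3) rose while Slc2a1 (GLUT1) was called in no comparison with wild type. Slc2a3 (ENSMUSG00000003153, chr6:122727809-122801640, minus strand) was at 13.2, 13.1 and 13.3 FPKM in wild type, the narrowest spread of any group. It was at 19.3, 20.5 and 19.6 in HDAC2, 22.3, 22.9 and 20.2 in Mef2c and 23.8, 21.2 and 19.3 in Mef2d libraries, all above every wild-type library. Of all genes tested, 28.6% lay wholly above wild type in HDAC2, 25.9% in Mef2d, 24.8% in HDAC1 and 23.5% in Mef2c. These shares apply to the genes below as well. For Slc2a3 the log2 difference was 0.55, SE 0.08, adjusted p 0.00195 in HDAC2, 0.68, SE 0.08, adjusted p 5.1e-05 in Mef2c and 0.65, SE 0.08, adjusted p 0.000114 in Mef2d, and all 3 calls held in each of the 13 alternatives. HDAC1 libraries, at 15.9, 16.1 and 15.3, were also all above wild type without passing (0.24, SE 0.08, adjusted p 0.0639). Dyrk1 libraries, at 12.2, 13.7 and 15.3, spread over both sides of it. The order of the group means was wild type, Dyrk1, HDAC1, HDAC2, Mef2d and Mef2c, and the libraries of Mef2c, Mef2d and HDAC2 overlapped.

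Slc2a1 was at 16.8, 14.4 and 15.8 FPKM in wild type and 11.98, 13.7 and 13.7 in Dyrk1 libraries, which lay below it and narrowly missed the threshold (-0.24, SE 0.08, adjusted p 0.0507). Slc2a3 as a share of the 2 glucose carriers was 45.8 ± 1.81% in wild type, 51.0 ± 1.56% in Dyrk1, 48.2 ± 1.39% in HDAC1, 53.0 ± 0.582% in HDAC2, 55.6 ± 0.940% in Mef2c and 55.9 ± 1.63% in Mef2d libraries (SD, n = 3). It was highest in both Mef2 groups, and HDAC1 was nearest to wild type.

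Both lactate carriers fell in HDAC2 and Mef2d. Slc16a1 (MCT1) was at 12.7, 11.04 and 14.7 FPKM in wild type and 8.799, 8.97 and 9.55 in Mef2d libraries, which were all lower (-0.44, SE 0.09, adjusted p 0.00495), and this held with any 1 library left out. It also fell in HDAC2 (-0.30, SE 0.09, adjusted p 0.0286) and Dyrk1 (-0.28, SE 0.09, adjusted p 0.0484), at 9.82, 9.97 and 10.6 and 10.7, 9.21 and 10.97 FPKM. The call in HDAC2 was lost without wild type replicate 1 or 3 or HDAC2 replicate 1 or 2 (log2 difference -0.30 to -0.20, adjusted p 0.0651 to 0.153) and that in Dyrk1 without wild type replicate 1 or 3 or Dyrk1 replicate 2 or 3 (log2 difference -0.32 to -0.19, adjusted p 0.0585 to 0.205). Slc16a1 lies 16.5 Mb from the targeted Mef2d gene on chromosome 3.

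Slc16a3 (MCT4), the carrier of strongly glycolytic cells, was at 5.07, 3.73 and 5.91 FPKM in wild type, 2.58, 4.12 and 2.78 in HDAC2 and 3.46, 3.19 and 3.496 in Mef2d libraries. HDAC2 replicate 2 overlapped wild type and Mef2d did not. Its log2 difference was -0.51, SE 0.14, adjusted p 0.0164 in HDAC2, a call lost without wild type replicate 1 or 3 or HDAC2 replicate 1 or 3 (log2 difference -0.48 to -0.39, adjusted p 0.0506 to 0.0927). In Mef2d it was -0.41, SE 0.14, adjusted p 0.0438, a call lost without wild type replicate 1 or 3 or Mef2d replicate 1, 2 or 3 (log2 difference -0.43 to -0.29, adjusted p 0.0727 to 0.213).

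Ldhb, the lactate dehydrogenase subunit that favours pyruvate formation, changed most of all 36 genes, and it did so in Dyrk1. Ldhb (ENSMUSG00000030246, chr6:142490249-142507957, minus strand) was at 32.5, 34.04 and 33.8 FPKM in wild type and 17.5, 15.7 and 12.7 in Dyrk1 libraries. The Dyrk1 libraries were below all 15 others. The log2 difference was -1.09, SE 0.10, adjusted p 1.79e-05, and it held in all 13 alternatives. HDAC2 libraries, at 27.8, 23.1 and 29.4, were lower than wild type (-0.32, SE 0.10, adjusted p 0.0317), a call lost without wild type replicate 1, 2 or 3 or HDAC2 replicate 1 or 2 (log2 difference -0.35 to -0.22, adjusted p 0.0569 to 0.135). Mef2c libraries, at 38.8, 37.3 and 43.6, were all above wild type without passing (0.25, SE 0.10, adjusted p 0.099). As a share of Ldha and Ldhb together, Ldhb was 4.23 ± 0.676% in Dyrk1, 7.26 ± 0.987% in wild type and 10.6 ± 1.01% in Mef2c (SD, n = 3). Dyrk1 replicate 1, the library richest in B cell markers, had the highest Ldhb of its group.

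Pyruvate enters mitochondria through a carrier made of Mpc1 and Mpc2 and is oxidised by the dehydrogenase complex, whose subunits include Pdha1, Pdhb and Dlat. The kinases Pdk1, Pdk2 and Pdk3 switch that complex off. Of these 8 genes 2 rose and 2 fell in HDAC2 (Mpc1 and Pdk1, Mpc2 and Pdk3), and 2 rose and 4 fell in Mef2d (the same 4 with Pdhb and Dlat). In Dyrk1 2 fell (Pdk1 and Pdk2), and Mpc1 alone rose in HDAC1 and in Mef2c.

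Mpc1 was low, at 2.22, 1.57 and 2.13 FPKM in wild type, and it was higher in HDAC2 libraries at 5.41, 4.42 and 3.54. The HDAC2 values spread widely but all lay above wild type (0.87, SE 0.15, adjusted p 0.00285), and this held in all 13 alternatives. It was at 3.08, 3.13 and 3.69 in HDAC1 (0.54, SE 0.15, adjusted p 0.0335), 3.93, 2.85 and 2.93 in Mef2c (0.51, SE 0.15, adjusted p 0.0308) and 3.000, 3.46 and 3.21 in Mef2d (0.51, SE 0.15, adjusted p 0.0278). Those 3 groups were all above wild type as well. The call in HDAC1 was lost without wild type replicate 1, 2 or 3 or HDAC1 replicate 1, 2 or 3 (log2 difference 0.43 to 0.60, adjusted p 0.0511 to 0.0986), that in Mef2c without wild type replicate 2 or 3 or Mef2c replicate 1 (log2 difference 0.39 to 0.55, adjusted p 0.0649 to 0.145) and that in Mef2d without wild type replicate 2 or 3 or Mef2d replicate 1, 2 or 3 (log2 difference 0.41 to 0.55, adjusted p 0.0576 to 0.0875). Of the 100-base stretches of Mpc1, 18.8% also occur in another gene.

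Its partner Mpc2 went the other way. Mpc2 was at 9.13, 11.8 and 11.01 FPKM in wild type, 8.86, 7.08 and 9.11 in HDAC2 and 8.45, 7.82 and 8.83 in Mef2d libraries. No library of the 2 groups reached the wild-type range. Its log2 difference was -0.32, SE 0.10, adjusted p 0.027 in HDAC2, a call lost without wild type replicate 2 or 3 or HDAC2 replicate 2 (log2 difference -0.29 to -0.21, adjusted p 0.0912 to 0.119). In Mef2d it was -0.31, SE 0.10, adjusted p 0.0336, a call lost without wild type replicate 2 or 3 or Mef2d replicate 1 or 2 (log2 difference -0.31 to -0.24, adjusted p 0.0812 to 0.125).

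Pdk1, a target of HIF-1 in other cells, was at 29.9, 29.4 and 25.2 FPKM in wild type. It was at 37.7, 35.3 and 39.4 in HDAC2 and 34.9, 37.5 and 33.7 in Mef2d libraries, all above wild type, and at 22.1, 21.2 and 18.1 in Dyrk1 libraries, all below it. The log2 difference of Pdk1 was 0.40, SE 0.09, adjusted p 0.00789 in HDAC2 and -0.44, SE 0.09, adjusted p 0.00728 in Dyrk1, and both held with any 1 library left out. The Pdk1 call in HDAC2 was lost with length and GC trends removed (log2 difference 0.28, adjusted p 0.0506), and that in Dyrk1 with the 2 groups alone (adjusted p 0.114). In Mef2d it was 0.32, SE 0.09, adjusted p 0.0262, a call lost without wild type replicate 3 or Mef2d replicate 1 or 2 (log2 difference 0.24 to 0.33, adjusted p 0.0663 to 0.137). Pdk1 thus rose in HDAC2 and Mef2d libraries, in which Ldha and Pgk1 fell.

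Pdk3, the isoform on chromosome X, was at 14.6, 13.1 and 15.3 FPKM in wild type, 11.3, 11.4 and 11.1 in HDAC2 and 11.7, 10.9 and 11.9 in Mef2d libraries. Both deletion groups were wholly below wild type. Its log2 difference was -0.32, SE 0.08, adjusted p 0.00914 in HDAC2, a call lost without wild type replicate 3 (log2 difference -0.27, adjusted p 0.0529), and -0.29, SE 0.08, adjusted p 0.0168 in Mef2d, a call lost without wild type replicate 1 or 3 or Mef2d replicate 2 (log2 difference -0.28 to -0.25, adjusted p 0.0516 to 0.0864). Pdk1 made up 58.0 ± 2.95% of the 3 kinases in wild type, 67.5 ± 1.61% in HDAC2, 66.9 ± 1.54% in Mef2d and 51.3 ± 3.28% in Dyrk1 (SD, n = 3). Pdk3 made up 29.6 ± 3.22%, 20.3 ± 0.984%, 21.8 ± 1.82% and 37.0 ± 3.91% in the same groups.

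Pdk2 fell in Dyrk1, from 6.003, 6.45 and 5.69 FPKM in wild type to 5.01, 4.81 and 4.18 (-0.32, SE 0.08, adjusted p 0.0149), with no overlap. The call was lost without wild type replicate 2 or Dyrk1 replicate 3 (log2 difference -0.28 to -0.25, adjusted p 0.0536 to 0.0611). Of the dehydrogenase subunits Pdhb, at 63.04, 67.9 and 66.5 FPKM in wild type and 53.05, 56.01 and 51.3 in Mef2d libraries, fell in Mef2d (-0.30, SE 0.08, adjusted p 0.0202), a call lost without wild type replicate 3 or Mef2d replicate 1 or 3 (log2 difference -0.29 to -0.27, adjusted p 0.062 to 0.0731). Dlat, at 15.9, 14.2 and 16.4 and 12.4, 12.9 and 13.2, fell there too (-0.25, SE 0.07, adjusted p 0.0253), a call lost without wild type replicate 1 or 3 or Mef2d replicate 1 or 2 (log2 difference -0.26 to -0.21, adjusted p 0.0626 to 0.116). Pdha1 ranged from 40.4 to 52.9 FPKM over the 18 libraries and passed in no comparison.

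**Figure D3:**
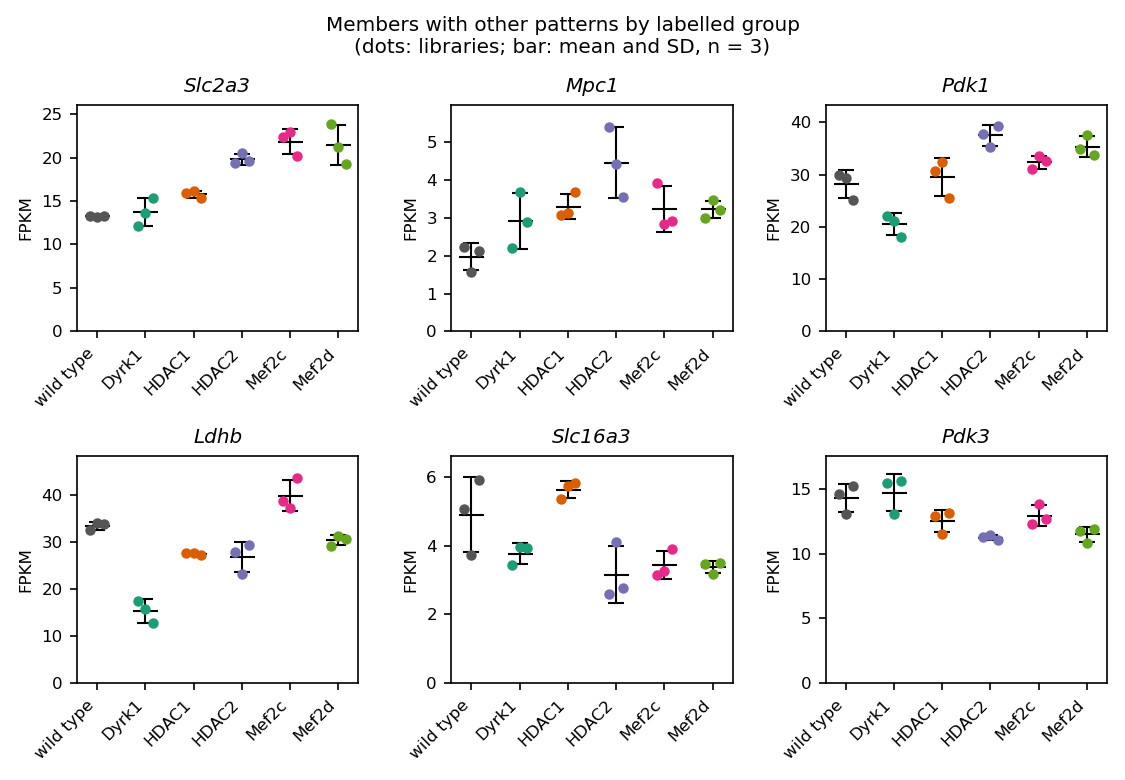
FPKM of Slc2a3, Mpc1, Pdk1, Ldhb, Slc16a3 and Pdk3 in the 6 labelled groups; dots are libraries, bars the mean and SD (n = 3), and axes start at 0. Slc2a3 and Mpc1 have their lowest group mean in wild type, and the 3 Dyrk1 libraries are the lowest of all 18 for Ldhb (12.7 to 17.5 FPKM) and Pdk1 (18.1 to 22.1 FPKM).

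In the pentose phosphate pathway 3 of 4 genes fell in HDAC2 (G6pdx, Pgd and Tkt), 2 in Mef2d (Pgd and Tkt) and 1 in Mef2c (Tkt), and limma called 0 in HDAC1 and in Dyrk1 (each with 1 lower at an unadjusted p under 0.05). Tkt, transketolase of the non-oxidative branch, was at 97.8, 90.9 and 116 FPKM in wild type, 72.1, 74.8 and 75.3 in HDAC2 and 68.7, 68.98 and 74.9 in Mef2d libraries. Both groups were wholly below wild type. For Tkt the log2 difference was -0.44, SE 0.10, adjusted p 0.00586 in HDAC2 and -0.51, SE 0.10, adjusted p 0.00289 in Mef2d, and both held in all 13 alternatives. In Mef2c, at 74.1, 86.3 and 86.8, it was -0.29, SE 0.10, adjusted p 0.0454, a call lost without wild type replicate 1 or 3 or Mef2c replicate 1, 2 or 3 (log2 difference -0.33 to -0.20, adjusted p 0.0505 to 0.22).

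G6pdx, glucose 6-phosphate dehydrogenase and the entry step of the oxidative branch, was at 15.4, 15.5 and 18.3 FPKM in wild type and 14.2, 12.6 and 12.2 in HDAC2 libraries (-0.31, SE 0.09, adjusted p 0.0232). No HDAC2 library reached wild type, and the call was lost without wild type replicate 3 or HDAC2 replicate 2 or 3 (log2 difference -0.29 to -0.24, adjusted p 0.0701 to 0.122). Pgd, the next dehydrogenase to make NADPH, was at 27.1, 25.2 and 31.5 in wild type, 22.01, 23.7 and 21.3 in HDAC2 and 23.2, 21.7 and 22.3 in Mef2d libraries, both wholly below wild type. Its log2 difference was -0.31, SE 0.08, adjusted p 0.013 in HDAC2, a call lost without wild type replicate 3 (log2 difference -0.22, adjusted p 0.0744), and -0.30, SE 0.08, adjusted p 0.0164 in Mef2d, a call lost without wild type replicate 3 or Mef2d replicate 2 (log2 difference -0.28 to -0.21, adjusted p 0.0583 to 0.0913). Taldo1, transaldolase, passed in no comparison and ranged from 88.94 to 135.5 FPKM.

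Hif1a, the oxygen-regulated subunit of HIF-1, ranged from 35.94 to 50.38 FPKM and passed in no comparison. Its log2 difference from wild type was between -0.02 and 0.16 in the 5 deletion groups, each with SE 0.10. Bnip3, a mitophagy receptor and HIF-1 target, was at 3.48, 4.18 and 3.07 FPKM in wild type and 2.602, 2.33 and 2.801 in Mef2d libraries, which lay below it (-0.35, SE 0.11, adjusted p 0.0412). The Bnip3 call did not hold without wild type replicate 1 or 2 or Mef2d replicate 1 or 2 (log2 difference -0.36 to -0.26, adjusted p 0.0784 to 0.136).

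The differences between deletion groups do not use the wild-type means, although all 18 libraries enter their SE. Dyrk1 and HDAC2 differed in 10 of the 36 genes, 3 higher and 7 lower in Dyrk1, where 7.89% of all genes tested were higher and 9.47% lower. The kinases split. Pdk1 was lower in Dyrk1 than in HDAC2 (log2 difference -0.84, SE 0.09, adjusted p 6.29e-05), as was Pdk2 (-0.46, SE 0.08, adjusted p 0.000941), whereas Pdk3 was higher (0.36, SE 0.08, adjusted p 0.00515). For each of the 3 kinases no library of one group overlapped the other. Over all genes tested, 13.6% lay wholly above in Dyrk1 and 17.4% wholly below.

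Both glucose carriers were lower in Dyrk1 than in HDAC2 libraries. The log2 difference was -0.39, SE 0.08, adjusted p 0.00305 for Slc2a1 and -0.50, SE 0.08, adjusted p 0.00056 for Slc2a3, without overlap. Ldhb (-0.77, SE 0.10, adjusted p 0.000127), Pfkm (-0.33, SE 0.07, adjusted p 0.00394) and Mpc1 (-0.48, SE 0.15, adjusted p 0.041) were lower as well, and only Mpc1 overlapped. Gapdh (0.35, SE 0.10, adjusted p 0.0247) and Pgam1 (0.35, SE 0.09, adjusted p 0.0112) were higher. Slc2a1, Slc2a3, Ldhb, Pdk1 and Pdk2 held in all 13 alternatives. With the 2 groups alone Pfkm (adjusted p 0.0833) and Pdk3 (adjusted p 0.0644) were lost, and Pgam1 was lost with the B-cell-marker-rich libraries left out (adjusted p 0.0722). The Mpc1 call was lost without Dyrk1 replicate 1 or 3 or HDAC2 replicate 1 or 2 (log2 difference -0.48 to -0.34, adjusted p 0.0723 to 0.179), and that of Gapdh without Dyrk1 replicate 1 or HDAC2 replicate 1, 2 or 3 (log2 difference 0.31 to 0.37, adjusted p 0.0503 to 0.0913). All 34 cell cycle genes were higher in Dyrk1 than in HDAC2, and their part was not tested. The number of the 36 genes called higher ranged from 2 to 7 on leaving out a library, 7 of them without Dyrk1 replicate 2.

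**Figure D4:**
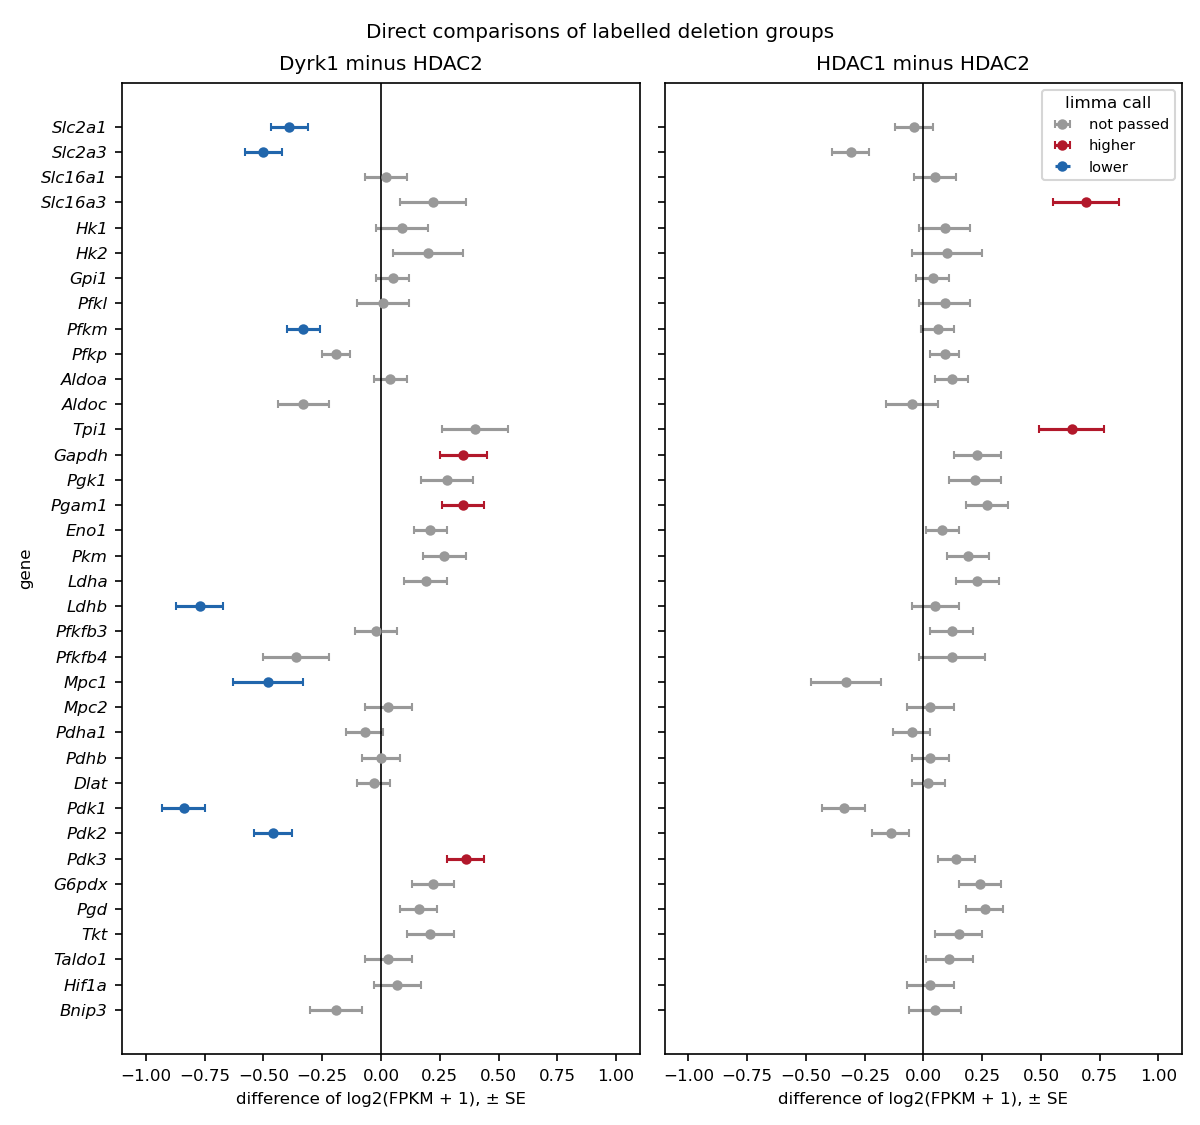
Log2 differences of log2(FPKM + 1) with SE for the 36 genes between Dyrk1 and HDAC2 libraries (left) and between HDAC1 and HDAC2 libraries (right); colours mark an adjusted p under 0.05 from limma. On the left 7 genes are lower in Dyrk1, led by Pdk1 at -0.84 and Ldhb at -0.77, and on the right Slc16a3 at 0.69 and Tpi1 at 0.63 are higher in HDAC1.

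The paralogs HDAC1 and HDAC2 differed in 2 of the 36 genes, both higher in HDAC1-labelled libraries, where 1.06% of all genes tested were higher and 0.442% lower (1.5% either way). Slc16a3 was at 5.36, 5.73 and 5.83 FPKM in HDAC1 and 2.58, 4.12 and 2.78 in HDAC2 libraries, with no overlap (0.69, SE 0.14, adjusted p 0.0207). Tpi1 was at 74.8, 68.7 and 82.05 against 43.8, 51.9 and 49.1, also with no overlap (0.63, SE 0.14, adjusted p 0.0379). Of all genes tested 12.9% lay wholly above in HDAC1. The call of Slc16a3 was lost without HDAC1 replicate 1 or 3 or HDAC2 replicate 1 or 3 (log2 difference 0.59 to 0.72, adjusted p 0.0671 to 0.127), and that of Tpi1 without HDAC1 replicate 1 or 3 or HDAC2 replicate 1, 2 or 3 (log2 difference 0.56 to 0.68, adjusted p 0.058 to 0.189). Of the 34 cell cycle genes 2 were called higher in HDAC1 than in HDAC2, 33 were higher at an unadjusted p under 0.05, and their median log2 difference was 0.65. Their part in these differences was not tested. The 7 lower glycolysis genes had a median log2 difference of 0.22 with 0 called by limma (3 higher and 0 lower at an unadjusted p under 0.05).

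Between Mef2c and Mef2d libraries 0 of the 36 genes were called by limma, with 6 higher in Mef2c and 0 lower at an unadjusted p under 0.05, where 1.6% of all genes tested were called higher and 1.46% lower (3.06% either way). The lowest adjusted p was that of Ldhb, at 38.8, 37.3 and 43.6 FPKM in Mef2c and 29.2, 31.3 and 30.8 in Mef2d libraries (0.38, SE 0.10, adjusted p 0.058). All 3 Mef2c libraries were higher, as for 10.2% of all genes tested.

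Other genes of the same pathways were counted from lists. Over all genes tested, 16.1% were higher and 9.41% lower in HDAC2, 13.9% and 7.95% in Mef2d, 12.9% and 6.06% in Mef2c, 11.1% and 6.19% in Dyrk1, and 10.2% and 2.32% in HDAC1, so more genes were higher than lower in each. Of 63 further genes of glucose, pyruvate and pentose metabolism 43 were tested, and 5 were higher and 4 lower in HDAC2, 4 and 6 in Mef2d, 5 and 3 in Mef2c, and 1 and 7 in Dyrk1. In HDAC1 4 were higher and 0 lower (4 lower at an unadjusted p under 0.05). Among those called with at least 5 FPKM in the higher group, the largest difference from wild type was in Eno3, the muscle enolase. Eno3 averaged 12 ± 1.46 FPKM in Mef2d and 26.5 ± 1.54 in wild type (SD, n = 3), with log2 difference -1.08, SE 0.14 and adjusted p 0.000128. In Mef2c Eno3 averaged 33.1 ± 3.53 FPKM and exceeded Mef2d by 1.39 (SE 0.14, adjusted p 1.43e-05) in log2 units. Eno3 was also lower than wild type in Dyrk1 (log2 difference -0.58, adjusted p 0.0115) and HDAC2 (-0.39, adjusted p 0.0498). Pgam2, the muscle mutase, was higher in Mef2d at 8.82 ± 0.529 against 5.56 ± 1.12 FPKM (log2 difference 0.60, SE 0.10, adjusted p 0.00173). Pgam2 was also higher in Mef2c (0.33, adjusted p 0.0362) and lower in Dyrk1 (-0.33, adjusted p 0.0412). In Dyrk1 Adpgk, an ADP-dependent glucokinase, averaged 17.9 ± 5.55 against 29.3 ± 3.56 FPKM (log2 difference -0.72, SE 0.18, adjusted p 0.0146). Pdpr was called higher than wild type in every deletion group, by 0.26 in Mef2c to 0.43 in HDAC1 in log2 units. Those comparisons share the wild-type libraries.

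Of 25 partners, regulators and targets of the hypoxia factor 19 were tested, and the shares of all genes given above apply to their counts. In HDAC2 2 were higher and 2 lower, in Mef2d 1 and 1, in Mef2c 1 and 2, and in Dyrk1 3 and 1. In HDAC1 1 was higher and 0 lower (2 lower at an unadjusted p under 0.05). The genes named from this list and the next were chosen after their values were seen. Egln3, an oxygen-sensing prolyl hydroxylase, averaged 4.71 ± 0.626 FPKM in HDAC2 and 7.05 ± 1.65 in wild type (log2 difference -0.48, SE 0.13, adjusted p 0.0183). Egln3 was also lower in Mef2c (-0.52, SE 0.13, adjusted p 0.0152). Kdm3a, a histone demethylase induced by hypoxia, was higher in Mef2d at 23.3 ± 0.253 against 17.6 ± 1.47 FPKM (log2 difference 0.39, SE 0.08, adjusted p 0.00418). It was also called higher in Mef2c (0.28), Dyrk1 (0.26) and HDAC2 (0.22). In those same 3 groups Fam162a, of the same list, was called lower (-0.29 in Mef2c, -0.34 in Dyrk1 and -0.32 in HDAC2). Hif1an was called higher in Dyrk1 (0.39) and HDAC2 (0.41), and Vhl in Dyrk1 (0.3). These comparisons share the wild-type libraries.

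Among 20 upstream regulators of glucose metabolism, 16 were tested. Of all genes tested, 16.1% were higher in HDAC2, 10.2% in HDAC1, 12.9% in Mef2c, 13.9% in Mef2d and 11.1% in Dyrk1. Fewer of all genes were lower in each. In HDAC2 8 rose and 0 fell (3 lower at an unadjusted p under 0.05), in HDAC1 6 rose and 1 fell, in Mef2c 5 and 1, and in Mef2d and Dyrk1 5 and 0 each (2 and 3 lower at an unadjusted p under 0.05). Arrdc4, an arrestin-family protein that limits glucose carriers at the surface, rose in Mef2c from 4.41 ± 0.510 to 9.52 ± 1.34 FPKM (log2 difference 0.96, SE 0.11, adjusted p 3.02e-05), and by 0.67 in Mef2d and 0.54 in HDAC2. Txnip, its relative with the same role, fell in HDAC1 from 367 ± 62.9 to 147 ± 45.4 FPKM (log2 difference -1.35, SE 0.38, adjusted p 0.0315). Rictor and Tsc1, components of the mTOR pathway, Prkaa1, a catalytic subunit of AMPK, and Mlxip rose in all 5 comparisons. These share the wild-type libraries.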

How the data were processed

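RNA-seq values of 18 libraries were used. The deposited table holds FPKM per gene, made by the authors; the unit was read from the values, since no header names it. STAR, HTSeq and mm10 are listed per the submitters' processing notes; versions, annotation release and strand setting are not given in the sources used here. Genes at 1 FPKM or more in 3 or more libraries (12223 of 35275 identifiers) were tested on log2(FPKM + 1), which understates changes of low genes, with limma 3.58.1 in R 4.3.3 (trend, 1 mean per group over all 18 libraries, Benjamini-Hochberg adjustment over all genes, threshold 0.05). The test was checked on simulated data with independent noise for each gene, which does not imitate shifts shared by many genes of a library. P-values weigh a difference between group means against the spread between libraries within groups. All 36 genes were named by role, and of the other pathway genes up to 4 called per comparison with at least 5 FPKM in the higher group could be named, by size of difference. The members and lists were chosen with earlier results of these data known. Alternatives were a pseudocount of 0.1, no filter, RLE scaling, the 2 compared groups alone, a replicate block, removal of trends on gene length and GC content (mgcv 1.9.3), omission of the 3 libraries rich in B cell markers, and omission of each library.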

Additional observations from a re-analysis of the deposited data

How the results depend on the processing

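Counts are of the 36 genes called in limma. Without the low-value filter 5 were lower in Dyrk1, 1 higher in HDAC1, 3 lower in Mef2c, and 1 higher in HDAC1 than in HDAC2. With RLE scaling 1 was higher and 7 lower in HDAC1, 10 were lower in Mef2c, 2 higher in Mef2d, and 1 higher in Mef2c than in Mef2d. With the 2 compared groups alone 1 was lower in Dyrk1, 2 in HDAC1, 9 in HDAC2, 2 in Mef2c and 8 in Mef2d, and 1 was higher in Mef2c, in HDAC1 than in HDAC2 and in Dyrk1 than in HDAC2. With length and GC trends removed 0 were higher and 5 lower in HDAC1, 8 lower in Mef2c, 2 higher in Mef2d, 1 lower in HDAC1 than in HDAC2, 1 higher in Mef2c than in Mef2d and 7 higher in Dyrk1 than in HDAC2, and Pfkp in Mef2d turned from 0.20 to -0.01. With the 3 B-cell-marker-rich libraries left out 1 was higher in Dyrk1, 1 higher and 1 lower in Mef2c, 2 higher and 10 lower in Mef2d, 1 higher and 1 lower in HDAC1 than in HDAC2, and 1 higher in Dyrk1 than in HDAC2. Fewer samples enter the last setting and the 2-group fits; the cause of the other shifts was not tested. A pseudocount of 0.1 moved none of these counts by over 1.5 times.

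Replicate numbers recur in every group, but the 45 same-number pairs had correlations of -0.453 to 0.464 (median -0.004), and 18 were over 0.1. The 90 other pairs between groups had -0.435 to 0.471 (median -0.036), so the numbers were not taken to pair the libraries. A pairing within only some of the groups was not tested. With a replicate block 1 gene was higher and 4 lower in HDAC1, and 5 were higher in Dyrk1 than in HDAC2; the other counts stayed within 1.5 times.

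Leaving out each library in turn gave 0 to 1 higher and 4 to 11 lower in Dyrk1, 0 to 1 and 1 to 8 in HDAC1, 3 to 3 and 8 to 16 in HDAC2, 1 to 3 and 1 to 10 in Mef2c, and 1 to 3 and 8 to 16 in Mef2d. It gave 0 to 2 higher and 0 to 0 lower in HDAC1 than in HDAC2, 0 to 0 and 0 to 0 between Mef2c and Mef2d, and 2 to 7 and 6 to 8 in Dyrk1 than in HDAC2. The F test passed for 19 to 25. With 3 libraries a group, differences of low genes such as Aldoc, Pfkfb4 and Mpc1 rest on few reads.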
